A study of Mus musculus with 6 samples.

Results

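The troponin genes encode the calcium switch of the striated muscle thin filament, and they were examined in the hearts of male pups of the FVB strain (FVB/N in the methods) at postnatal day 6 (P6). They were chosen by name, as the 8 mouse genes of the family: the troponin I genes Tnni1, Tnni2 and Tnni3, the troponin T genes Tnnt1, Tnnt2 and Tnnt3, and the troponin C genes Tnnc1 and Tnnc2. Of these, 7 had a row in the array table, 1 probe each, among 25697 probes with 18138 gene symbols, and Tnnt2 was not analysed here.

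The hSRY-ON pups (n = 3) carried the FLAG-tagged human SRY-IRES-EGFP transgene of 1 mouse line, recombined in the zygote by Cre protein from the oocyte of a Ddx4-Cre mother, so that the broadly active CAG promoter drove human SRY and EGFP. The methods state that the hSRY-ON pups used for arrays did not themselves carry Ddx4-Cre. The hSRY-OFF pups (n = 3) are defined in the methods as carrying the same transgene without recombination, in which the promoter drives DsRed2, whereas control littermates are described elsewhere as lacking the transgene, so the control genotype cannot be settled from these sources. Total RNA of each heart was hybridized to 1 Illumina BeadChip array, on which the brightness of the beads of a probe measures its transcript. Human SRY itself was not measured here, and the mouse Sry probe was above background on 0 of the 6 arrays, so the group labels could not be checked against the transgene.

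In the troponin complex, troponin C binds calcium, troponin I holds the thin filament off until calcium binds, and troponin T anchors the complex to tropomyosin. Each subunit has isoforms named for the muscle in which they predominate. In heart muscle the slow skeletal troponin I gene Tnni1 is a fetal form that gives way to the cardiac gene Tnni3 around and after birth, Tnnt2 is the main troponin T gene, and Tnnc1 serves both heart and slow skeletal muscle. Tnni2, Tnnt3 and Tnnc2 belong to fast skeletal fibres, and Tnnt1 to slow skeletal fibres.

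Tnnt1 and Tnni3 are direct neighbours on chromosome 7 in RefSeq (GRCm38.p6), on the same strand, and changed in opposite directions between the groups. The 250 bases before their start sites are therefore shown, together with those before the upstream start of Tnni1, the fetal partner of Tnni3. They come from the RefSeq promoter table, which held windows for 6 of the 8 genes, and are written 5′ to 3′ on the strand of the gene. Tnnt1 is at chr7:4515976-4516225 (minus strand), Tnni3 at chr7:4522529-4522778 (minus strand) and Tnni1 at chr1:135799171-135799420 (plus strand). Capitals mark matches to any of 5 short motifs searched on both strands: the core AACAAT bound by SRY and SOX proteins, an M-CAT element written as CATTCC, a site for zinc finger factors of the Gata family written as AGATAA, an E-box written as CAGCTG, and a TATA box written as TATAAA. No motif overlaps another in the windows shown.
Tnnt1: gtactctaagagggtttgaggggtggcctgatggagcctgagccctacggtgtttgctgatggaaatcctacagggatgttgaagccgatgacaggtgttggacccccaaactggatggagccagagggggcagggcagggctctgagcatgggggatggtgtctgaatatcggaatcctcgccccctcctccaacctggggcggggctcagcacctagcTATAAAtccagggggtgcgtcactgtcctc
Tnni3: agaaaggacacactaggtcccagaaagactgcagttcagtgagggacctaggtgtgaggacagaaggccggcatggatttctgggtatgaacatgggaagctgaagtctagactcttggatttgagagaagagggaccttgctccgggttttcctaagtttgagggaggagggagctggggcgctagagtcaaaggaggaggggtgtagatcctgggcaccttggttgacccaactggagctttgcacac
Tnni1: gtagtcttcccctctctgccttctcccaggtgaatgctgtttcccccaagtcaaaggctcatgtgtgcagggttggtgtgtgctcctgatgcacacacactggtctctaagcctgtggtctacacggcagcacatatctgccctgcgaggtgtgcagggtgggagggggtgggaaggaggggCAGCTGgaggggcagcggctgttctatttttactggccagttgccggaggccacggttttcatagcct
The Tnnt1 window held TATAAA 30 bases before the start, a motif present in 12.4% of the 32851 windows of this length in the table. The Tnni1 window held CAGCTG 68 bases before the start (13.0% of all windows), and the Tnni3 window held none of the 5. AACAAT was in none of the 8 troponin windows and in 9.42% of all windows. These are matches of letters in short windows and not binding sites.

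Of the 7 troponin probes, 5 were above background on at least 3 of the 6 arrays and were tested, each of them on all 6 arrays. The limma test ran over 12970 probes, and a probe was called when its p-value, adjusted by the method of Benjamini and Hochberg, was under 0.05. One troponin gene, Tnnt1, rose in the hSRY-ON hearts, where 13.8% of all tested probes rose. Tnni3 and Tnni2 fell, where 13.7% of all tested probes fell. Tnni1 and Tnnc1 did not pass the test. In all, 3 of the 5 were called against 27.5% of all tested probes. In 4 of the 5 the normalized levels of the groups did not overlap, against 45.2% of all tested probes. For Tnnc1, 1 of these 4, the deposited intensities did overlap. With so few members these shares describe the genes and no more. The count of 3 was the same when any 1 heart was left out. Over all probes 50.1% of the calls were rises, and 38.5% were when the arrays were not normalized to each other. The share of all probes called was itself lower, at 14.6%, without that normalization, and at 17.4% without hSRY-OFF replicate 1 and 17.9% without hSRY-ON replicate 1, while the troponin count stayed at 3. In whole heart RNA, fewer cells of a type and less RNA per cell cannot be told apart.

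**Figure D1:**
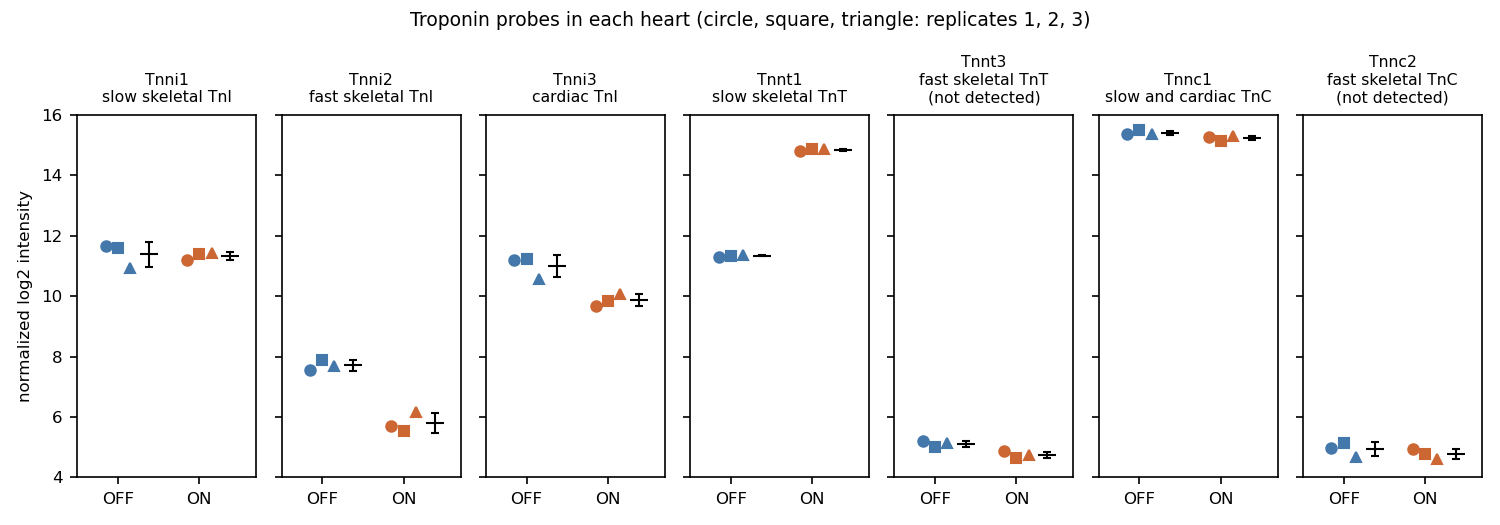
Normalized log2 intensity (vertical axis) of the 7 troponin probes in each of the 3 hSRY-OFF and 3 hSRY-ON hearts (points, with replicates 1, 2 and 3 as circle, square and triangle), with the group mean and SD beside them (bars). Tnnt1 is higher in all hSRY-ON hearts, Tnni2 and Tnni3 are lower in all of them, and Tnnt3 and Tnnc2 are above background in no heart. Heights are comparable within a panel only.

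The slow skeletal troponin T gene Tnnt1 had the largest change of the 5 tested genes. Its deposited intensity was 3016, 3330 and 2131 in the hSRY-OFF hearts, given here and throughout in the order of replicates 1, 2 and 3. The hSRY-ON hearts read 26547, 29669 and 27878. Every hSRY-ON heart was thus far above every hSRY-OFF heart, although hSRY-OFF replicate 3 read lower than the other hSRY-OFF hearts. After background correction and quantile normalization, the log2 level was 11.34 ± 0.02 (SD, n = 3) in hSRY-OFF and 14.84 ± 0.04 (SD, n = 3) in hSRY-ON hearts. The log2 fold change, hSRY-ON minus hSRY-OFF, was 3.51 (standard error, SE, 0.11, limma adjusted p = 1.18e-05), an 11.4-fold higher level with a 95% interval of 9.56 to 13.5. Among the 12970 tested probes it ranked 18 from the largest rise. Under the processing alternatives that kept all hearts the log2 fold change lay between 3.40 and 3.54, and with 1 heart left out between 3.49 and 3.53. The genes with the most similar values to Tnnt1, by Euclidean distance of log2 levels centred on the hSRY-OFF mean over the 6 hearts, were LOC100046120 (distance 0.38, log2 fold change 3.32), Mylk (distance 0.50, log2 fold change 3.46), which encodes myosin light chain kinase, and Phactr1 (distance 0.52, log2 fold change 3.53), which encodes an actin and phosphatase 1 binding protein.

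The cardiac troponin I gene Tnni3, whose product carries the extra amino-terminal segment phosphorylated by protein kinase A, was lower in the hSRY-ON hearts. Its deposited intensity was 2833, 3058 and 1260 in hSRY-OFF, whereas the hSRY-ON hearts read 881, 1057 and 1146. The groups did not overlap, but hSRY-OFF replicate 3, the array with the lowest mean intensity, lay close to the hSRY-ON hearts. Normalized log2 levels were 11.21, 11.21 and 10.56 in the hSRY-OFF hearts against 9.67, 9.85 and 10.07 in the hSRY-ON hearts. The log2 fold change was -1.13 (SE 0.21, limma adjusted p = 0.00656), a 2.19-fold lower level with a 95% interval of 1.57 to 3.05. The call held under all 16 alternatives, at a log2 fold change between -1.22 and -1.03 with all hearts and between -1.34 and -1.02 with 1 heart left out, and the highest limma adjusted p was 0.0274. The alternative without normalization between arrays used an SE of 0.30 shared by the troponin probes, so it did not weigh the spread of Tnni3 itself.

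The slow skeletal troponin I gene Tnni1 did not pass the test. Its deposited intensity was 3854, 3921 and 1593 in hSRY-OFF, whereas the hSRY-ON hearts read 2330, 2801 and 2770. The hSRY-ON hearts lay between the high hSRY-OFF replicates 1 and 2 and the low hSRY-OFF replicate 3. The normalized log2 level was 11.39 ± 0.41 (SD, n = 3) in hSRY-OFF and 11.34 ± 0.13 (SD, n = 3) in hSRY-ON hearts. The log2 fold change of -0.05 (SE 0.21, limma adjusted p = 0.891) had a 95% interval of -0.53 to 0.44, so that a change of the size seen for Tnni3 lay outside it. Its sign turned to positive without hSRY-OFF replicate 1 (0.094), hSRY-OFF replicate 2 (0.05) or hSRY-ON replicate 1 (0.02).

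Whether the cardiac and the slow skeletal troponin I genes changed unequally was examined by the log2 difference between their probes within each array. A factor that scales all probes of an array alike leaves this difference unchanged, but background added to the signals does not. Only the movement of this difference between groups is read, since probes of different genes differ in brightness at equal transcript level. The Tnni3 minus Tnni1 difference was -0.46, -0.37 and -0.36 in hSRY-OFF, whereas the hSRY-ON hearts had -1.52, -1.54 and -1.37. The groups were clearly apart and hSRY-OFF replicate 3 no longer stood out, since Tnni1 and Tnni3 were both low on that array. The SD of the difference in hSRY-OFF hearts was 0.06, against 0.38 for Tnni3 and 0.41 for Tnni1 taken alone. The shift from hSRY-OFF to hSRY-ON was -1.08 (SE 0.06), a 2.12-fold lower ratio of cardiac to slow skeletal troponin I signal. It was between -1.13 and -0.98 under every alternative run. The exact two-sided permutation test gave p = 0.1 (0.1 after adjustment over 2 shifts), the smallest value that 3 hearts against 3 allow.

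The Tnni3 minus Tnni2 difference compares the cardiac with the fast skeletal gene, and its shift was 0.78 (SE 0.26, exact two-sided permutation p = 0.1, and 0.1 adjusted over 2 shifts). It was 3.67, 3.33 and 2.87 in the hSRY-OFF hearts and 3.96, 4.32 and 3.92 in the hSRY-ON hearts. The groups did not overlap, but this direction was not kept without background correction, where the shift was -0.19 (exact permutation p = 0.5), and with normexp and an offset of 50 the shift shrank to 0.14 (exact permutation p = 0.8). The corresponding differences for troponin T could not be computed without Tnnt2, and that for troponin C was not tested because Tnnc2 was not above background.

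**Figure D2:**
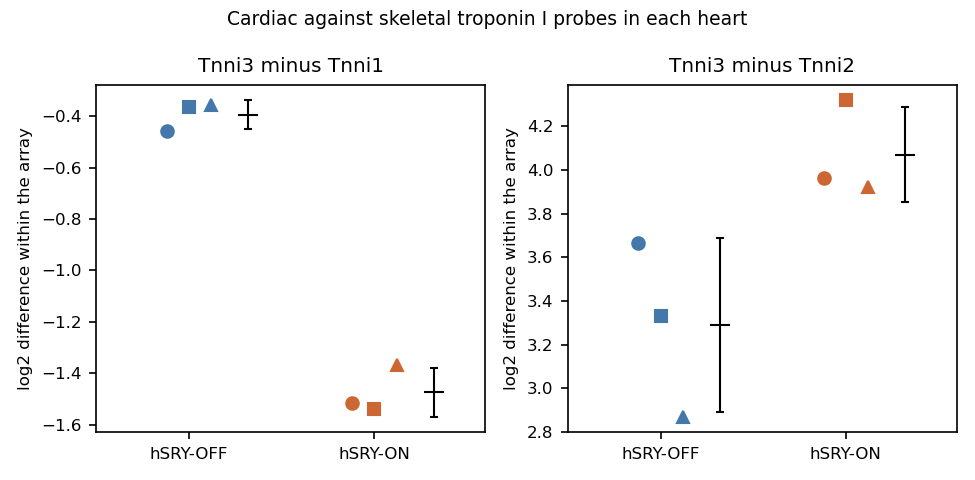
Difference of the normalized log2 intensities of the cardiac troponin I probe (Tnni3) and the slow (Tnni1, left) or fast (Tnni2, right) skeletal troponin I probe within each array (points, replicates 1, 2 and 3 as circle, square and triangle), with group mean and SD (bars). The Tnni3 minus Tnni1 difference is near -0.39 in hSRY-OFF and -1.47 in hSRY-ON hearts. The vertical scales of the panels differ.

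The fast skeletal troponin I gene Tnni2 also fell. Its probe was dim, with deposited intensities of 363, 451 and 275 in hSRY-OFF against 181, 179 and 196 in hSRY-ON. The detection p-values of the hSRY-ON hearts were 0.0163, 0.0226 and 0.00125, so the probe was only just above background there. All hSRY-ON hearts lay below all hSRY-OFF hearts. Normalized log2 levels were 7.70 ± 0.17 (SD, n = 3) in hSRY-OFF and 5.80 ± 0.32 (SD, n = 3) in hSRY-ON hearts, with a log2 fold change of -1.91 (SE 0.18, limma adjusted p = 0.000559). The size of this change rests on the background correction, since the log2 fold change was -0.84 without it and -1.22 with normexp and an offset of 50. With 1 heart left out it lay between -2.09 and -1.77, and the call held under all 16 alternatives. The genes with the most similar values, by the same distance, were Tdrd12 (0.22, log2 fold change -1.99), Papln (0.30, log2 fold change -1.93) and LOC333331 (0.37, log2 fold change -1.97).

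The other fast skeletal members, the troponin T gene Tnnt3 and the troponin C gene Tnnc2, were not above background on any array. Tnnt3 had deposited intensities of 183, 186 and 150 in the hSRY-OFF and 154, 147 and 146 in the hSRY-ON hearts, with detection p-values of 0.0815 at the least and 0.514 at the most. Tnnc2 had 173, 192 and 136 in the hSRY-OFF and 156, 153 and 140 in the hSRY-ON hearts, with detection p-values of 0.0915 to 0.593. No fold change is given for either, and low levels of these transcripts would not be detectable on these arrays.

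Tnnc1, the troponin C gene of heart and slow muscle, did not pass the test. Its deposited intensity was 45889, 47991 and 38868 in hSRY-OFF, whereas the hSRY-ON hearts read 37804, 36070 and 38997. It was among the 13 brightest of the 25697 probes on every array and was the brightest of all in hSRY-OFF replicate 2. The brightest probe of an array read between 43036 and 48079, so the probe lay at the upper end of the scale, where a true difference can be compressed, and neither its change nor its interval shows that the transcript was stable. The normalized log2 levels were 15.37, 15.49 and 15.37 in hSRY-OFF against 15.25, 15.14 and 15.29 in hSRY-ON hearts. The groups did not overlap in these levels, whereas the deposited intensities of hSRY-OFF replicate 3 and hSRY-ON replicate 3 did. The log2 fold change was -0.18 (SE 0.11, limma adjusted p = 0.284) with a 95% interval of -0.44 to 0.09. With an intensity trend and robust estimation in eBayes the same difference was called (adjusted p = 0.0474).

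**Figure D3:**
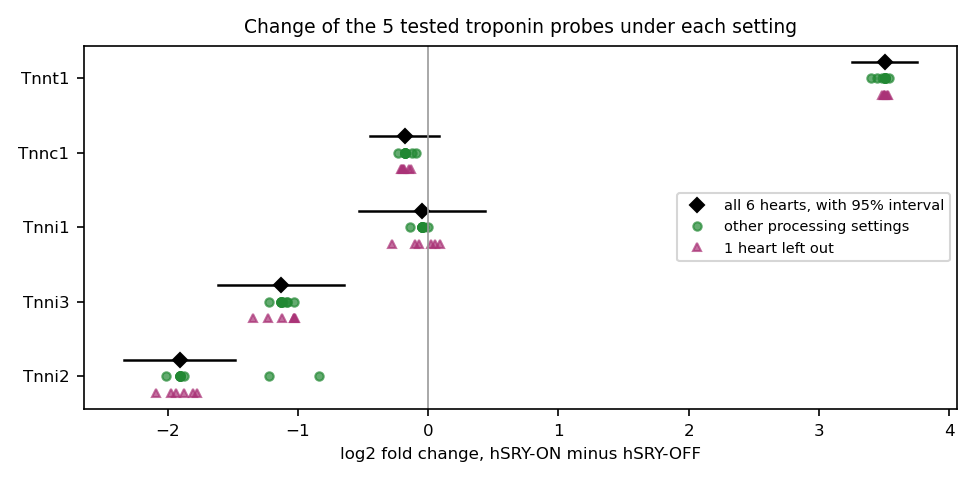
Log2 fold change, hSRY-ON minus hSRY-OFF (horizontal axis), of the 5 tested troponin probes with all 6 hearts and its 95% interval (black diamonds and lines), under the other processing settings (green circles) and with 1 heart left out (purple triangles). Tnnt1 stays between 3.40 and 3.54, Tnni3 stays below -1.02, and Tnni2 is nearest to 0 at -0.84 without background correction.

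The partners of troponin in the thin filament were read next, each gene by its brightest tested probe, as in all lists here. Of 13 other thin filament genes, 8 were tested, of which none rose and 2 fell, or 25.0% called, close to the 27.5% of all tested probes, with a median log2 fold change of -0.23 against -0.0046 over all tested probes. A dimmer probe of the tropomyosin gene Tpm2 was called higher (log2 fold change 0.85, limma adjusted p = 0.0435), whereas its brightest one was not (-0.03). Acta1, the skeletal alpha-actin gene that is also expressed in the immature heart, fell from a log2 level of 11.73 to 8.48, a log2 fold change of -3.25 (SE 0.28, limma adjusted p = 0.000389). Tmod4, which encodes a skeletal muscle tropomodulin that caps the filament, changed by -1.41 (SE 0.14), and its other probes by -1.37 and -1.31. Cardiac actin Actc1 had a log2 fold change of -0.20 and the tropomyosin gene Tpm1, whose product binds troponin T, of 0.14, and neither passed the test.

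The sarcomere genes that partner the slow and fast troponins were compared next. Of 10 slow fibre and ventricular partners, 8 were tested, and 1 rose and none fell (median log2 fold change -0.03), or 12.5% against 27.5% of all tested probes. Dimmer probes of Csrp3, which encodes a muscle LIM protein, were called lower (log2 fold changes -0.68 and -1.21), as was one of the calcium pump gene Atp2a2 (-0.53), while their brightest probes were not (-0.33 and -0.09). The gene that rose was Myh7, the slow and fetal ventricular myosin heavy chain, with a log2 level of 10.19 in hSRY-OFF and 13.13 in hSRY-ON hearts and a log2 fold change of 2.94 (SE 0.18, limma adjusted p = 8.25e-05). The ventricular light chain genes Myl2 and Myl3 had log2 fold changes of -0.02 and -0.03, with probes at the same upper end of the scale as that of Tnnc1. The brightest Atp2a2 probe also lay near that end, with log2 levels of 15.21 in hSRY-OFF and 15.12 in hSRY-ON hearts. The low share called in this list therefore does not show that these transcripts were stable. Of 14 fast fibre partners, 7 were tested, of which 1 rose and 4 fell, where 13.8% of all tested probes rose and 13.7% fell. The median log2 fold change was -1.07 as fitted and -0.50 with Actn3 and Pvalb, each below background in 1 group, at their bounds. Casq1, the fast fibre calcium store protein of the sarcoplasmic reticulum, changed by -3.32 (SE 0.20) and was above background on 2 of the 3 hSRY-ON arrays. Myl1, the fast skeletal light chain gene, changed by -2.66 (SE 0.29). Actn3, the fast fibre alpha-actinin gene, was detected on all 3 hSRY-ON arrays but on no hSRY-OFF array. It entered the test only through the hSRY-ON arrays, so its call, the 1 rise counted above, is no separate support. By a bound it was at least 3.10-fold higher in hSRY-ON. This bound sets the normalized level of each hSRY-OFF array to its lowest detected signal, or to that of the probe where this was higher. Pvalb, which encodes the fast muscle calcium buffer parvalbumin, was above background on all hSRY-OFF and none of the hSRY-ON arrays. It was at least 1.42-fold lower by the same kind of bound. Its call, 1 of the 4 falls, likewise rests on a probe that entered the test through the hSRY-OFF arrays alone.

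Markers of skeletal muscle other than the troponins were mostly below background. Of 16 such genes, 15 were on the array, 10 were above background on no array, and 4 were tested. These had 1 rise (Actn3) and 2 falls, against the same shares of all tested probes. Actn3 entered the test only through the hSRY-ON arrays. The muscle determination genes Myod1 and Myf5, the satellite cell gene Pax7 and the adult fast myosin genes Myh1, Myh2 and Myh4 were above background on no array of either group. The normalized intensities of the list had sums of 639 to 801 in hSRY-OFF and of 654 to 685 in hSRY-ON. These sums include the genes at background and add up opposite moves, so they do not show an unchanged signal. Actn3 had a log2 level of 7.06 in hSRY-ON hearts, and its 4.77 in hSRY-OFF hearts is a background reading and not a level. Myh8 had log2 levels of 7.86 in hSRY-OFF and 6.44 in hSRY-ON hearts. The falls were those of Myh8, the perinatal myosin heavy chain (log2 fold change -1.42, with -0.41 for its other probe, which was not called), and of Myog (log2 fold change -0.56, above background on 2 of the 3 hSRY-ON arrays).

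The direction of troponin I was set beside that of other heart muscle genes known to change with age after birth. Of 14 genes that rise after birth, 13 were tested, of which 10 fell, Tnni3 among them, and none rose (median log2 fold change -0.77), where 13.7% of all tested probes fell and 13.8% rose. Without Tnni3, 9 of 12 fell. Ckmt2, the mitochondrial creatine kinase of the sarcomere, had the largest fall of the list, with a log2 fold change of -7.09, and the cytochrome oxidase subunit gene Cox7a1 changed by -1.44. Of 15 genes that fall after birth, 14 were tested, of which 5 rose and 2 fell (median log2 fold change 0.05), against the same shares. Myh7 and the glucose transporter gene Slc2a1 (log2 fold change 1.27) rose, whereas Acta1 and the atrial light chain gene Myl4 (log2 fold change -0.99) fell, and Tnni1 did not pass the test. This list thus held members in both directions.

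**Figure D4:**
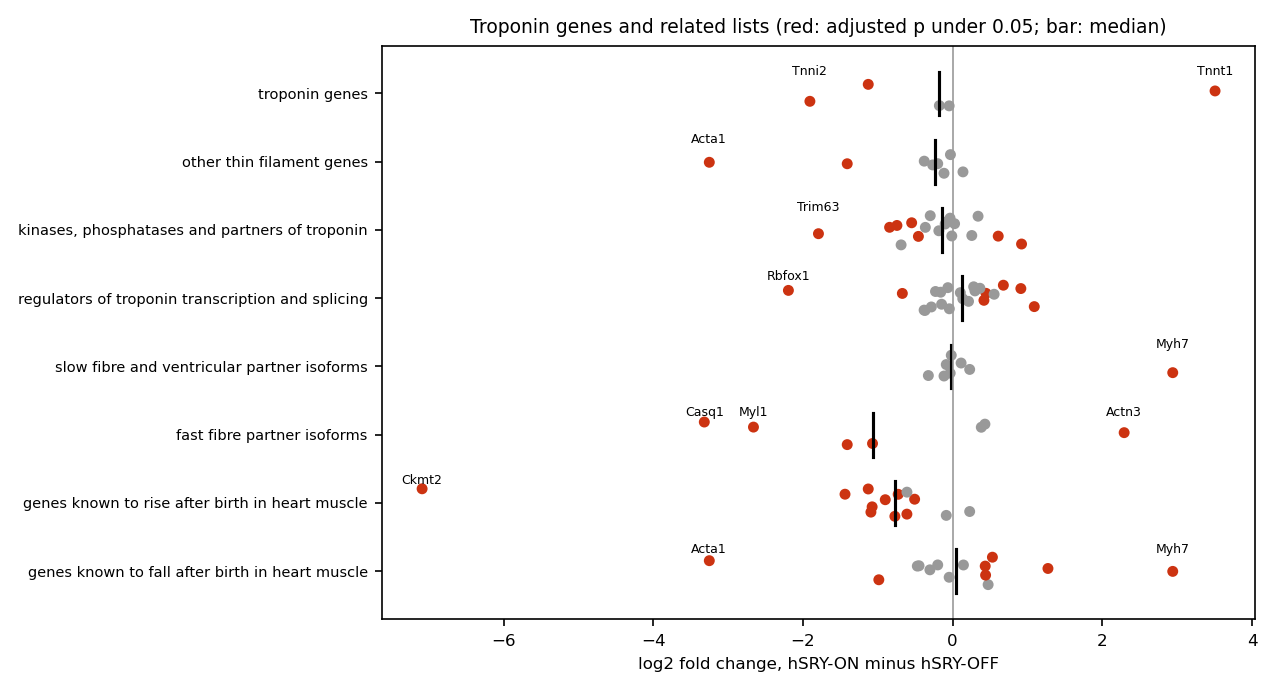
Log2 fold change, hSRY-ON minus hSRY-OFF (horizontal axis), of each tested gene of the troponin family and of 7 related lists (rows). Each point is 1 gene by its brightest tested probe, red where the adjusted p-value was under 0.05, and the black bars are medians. Tnnt1 at 3.51 and Myh7 at 2.94 lie on the right, Tnni2 at -1.91 and Acta1 at -3.25 on the left. Actn3 was not above background in hSRY-OFF hearts and Pvalb was not in hSRY-ON hearts, so their points are no measure of size.

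Genes that act on troponin were compared as a list of kinases, phosphatases and partners. Of 20 such genes, 18 were tested, of which 2 rose and 5 fell (median log2 fold change -0.14), or 38.9% called against 27.5% of all tested probes. Trim63, which encodes the ubiquitin ligase MuRF that has troponin I among its targets, changed by -1.79 (SE 0.19, limma adjusted p = 0.000815). Tnni3k, the heart kinase that interacts with cardiac troponin I, had log2 fold changes of -0.84 and -1.10 for the called probes and -0.50 for the other one, which was not called. Prkaca, the catalytic subunit of protein kinase A, changed by -0.55 (SE 0.12) and by -0.69 on its other probe, its regulatory subunit gene Prkar1a by -0.46 and the protein kinase C gene Prkca by -0.74 (SE 0.15). Another protein kinase C gene, Prkcd, rose by 0.61 (SE 0.16, limma adjusted p = 0.0302), and Ppp1r1a, the protein phosphatase 1 inhibitor, rose by 0.92 (SE 0.15).

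Among 32 regulators of transcription and splicing in muscle, 22 were tested, of which 5 rose and 2 fell (median log2 fold change 0.12), or 31.8% called, near the 27.5% of all tested probes. Nkx2-5, a cardiac homeobox factor, rose by 0.68 (SE 0.12), Prox1, which represses fast fibre genes, rose by 0.91 (SE 0.12) with 1.18 on its other probe, and Tbx5 rose by 1.09 (SE 0.29, limma adjusted p = 0.0282). Gata6 and Nfatc1 rose by 0.45 and 0.42, and Hand2, a basic helix-loop-helix factor of the heart, changed by -0.67 (SE 0.19). Rbfox1, a splicing factor of striated muscle listed in the file as A2bp1, fell from a log2 level of 9.95 to 7.76, a log2 fold change of -2.20 (SE 0.25, limma adjusted p = 0.00108). Sox6, which represses slow fibre genes in muscle, was not tested, since its brightest probe was above background on 1 hSRY-OFF array and no hSRY-ON array.

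The genes on either side of the troponin genes, 2 protein-coding genes each way in RefSeq (GRCm38.p6), were also read. Of 22 such neighbours outside the family, 20 were on the array and 14 were tested, of which 2 rose and 2 fell. These 28.6% are near the 27.5% called over all tested probes and single out no locus. Beside Tnnt1 and Tnni3, Ppp1r12c had a log2 fold change of 0.06 (limma adjusted p = 0.756). Dnaaf3, next to Tnni3 on its other side and listed in the file as 6030429G01Rik, changed by -0.83 (SE 0.22, limma adjusted p = 0.0286). Its probe was dim and was above background on 2 of the 3 hSRY-ON arrays. Lad1, between Tnni1 and Tnnt2 on chromosome 1, changed by -1.19 (SE 0.16, limma adjusted p = 0.00168), while Tnni1 itself was not called. Near Tnnc1 on chromosome 14, Stab1 rose by 0.65 and Phf7 by 0.59, with Tnnc1 not called, and the tested neighbours of Tnnc2 on chromosome 2 did not pass the test.

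The tissue carried the transcripts of heart muscle in both groups. Of 12 cardiomyocyte markers, 11 were on the array and tested, of which 6 fell, Tnni3 among them, and 1 rose. These and the marker counts that follow stand beside 13.8% of all tested probes that rose and 13.7% that fell. Their normalized intensities had sums of 159719 to 169892 in hSRY-OFF against 119560 to 149051 in hSRY-ON. Of 7 macrophage markers 5 rose and none fell, and the sums were 3040 to 4014 against 6635 to 7466. Of 6 tested smooth muscle markers 3 rose, Mylk among them, and 1 fell, and the sums were 41928 to 48955 against 57478 to 64351. For 6 tested endothelial markers 1 rose and 3 fell, and for 7 tested fibroblast markers 1 rose. A dimmer probe of the fibroblast marker Dcn was called lower (log2 fold change -0.90) and one of the macrophage marker Csf1r higher (1.30). Their brightest probes, which the counts use, were not called (-0.30 and 0.40). For 4 tested fat markers 2 rose, and for 5 tested erythroid markers 1 fell. Of 7 liver markers, 3 were above background on no array, and 2 were tested and called higher (sums of 372 to 417 against 1520 to 3135). Each sum given here is weighted to the brightest genes of its list, such as Ahsg for liver, Acta2 for smooth muscle and Lyz2 for macrophages. None of the sums shows that a whole list moved. The liver marker Ttr and the macrophage marker Cd163 were above background on no hSRY-OFF array. They entered the test only through the hSRY-ON arrays, so their calls are no separate support. The lists went in different directions, and the part of any of these cell types in the values of Tnnt1, Tnni2 and Tnni3 was not tested. The arrays had between 47.2% and 51.3% of probes above background, with mean intensities of 631 to 939, and their number limits the precision. The study describes biological triplicates, and the labels name no litters.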

How the data were processed

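Total RNA of 3 hSRY-ON and 3 hSRY-OFF hearts was hybridized to Illumina MouseRef-8 arrays. The deposited values are bead intensities per probe on a linear scale, neither normalized nor background subtracted (lowest value of an array 110 to 135), each with the detection p-value that the authors' software computed. The bead summary software is not given in the sources used here. The methods name the R package TCC and the submitters' processing notes limma, both without settings.

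Groups and replicate numbers are those of the labels. No arrays held identical values (0 pairs). In R 4.3.3, neqc of limma 3.58.1 inferred the background from the deposited detection p-values (offset 16), followed by quantile normalization and conversion to log2. Probes with a detection p-value under 0.05 on 3 or more of the 6 arrays entered lmFit and eBayes, two-sided, with group as the only term and Benjamini-Hochberg adjustment over 12970 probes. The fit was tested on simulated data. It called too few of the planted changes to meet the limit first set, and that limit was then replaced by others that it met. Many planted changes of 1 on the log2 scale were missed, so a gene that did not pass the test is not thereby shown to be unchanged. matplotlib 3.10.9 under Python 3.11.15 drew the plots.

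The troponin genes, the 8 gene lists and the 9 marker lists were chosen with earlier results of these data known. Lists are described by counts and medians, with the brightest tested probe of each gene and no test. Older symbols were matched through RefSeq synonyms. By rule the text names all troponin genes, the called list genes with the largest rises and falls, the nearest patterns and the neighbours. Motifs, marker genes, the other called genes and the list genes that were not called were chosen after their values were seen. Probe sequences were not used here. Alternatives changed the background correction, the normalization, the probe filter, the variance model, the replicate block and the hearts included.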

Additional observations from a re-analysis of the deposited data

How the results depend on the processing

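Of the 5 tested troponin genes, 3 were differentially expressed under 15 of the 16 alternatives and with each heart left out (3 to 3), and 4 were with an intensity trend and robust estimation, where Tnnc1 was added. Over all probes, 3567 were differentially expressed, 1897 without normalization between arrays, where the typical probe shifted, with a median of -0.12 on the log2 scale, and between 2206 and 3669 with 1 heart left out, the lowest being 2206 without hSRY-OFF replicate 1 and 2255 without hSRY-ON replicate 1. Whether the replicate numbers pair the hearts is not known, since the labels name no litters. Deviations from the group means of same-numbered hearts correlated at -0.02, 0.04 and -0.07. Among all combinations, hSRY-OFF replicate 1 correlated best with hSRY-ON replicate 3. With 3 hearts per group, correlations this small cannot show pairing or its absence. With the number as a replicate block, 2842 probes and the same number of troponin genes, 3, were called, and the Tnni3 minus Tnni1 shift of -1.08 had an exact sign-flip p of 0.25, the smallest that 3 pairs allow. The Tnni3 minus Tnni2 shift was reversed to -0.19 without background correction and ranged from 0.59 to 0.95 with 1 heart left out. The log2 fold change of Tnni1, which was never called, ranged from -0.28 to 0.094 with 1 heart left out, and was 0.094 without hSRY-OFF replicate 1, 0.05 without hSRY-OFF replicate 2 and 0.02 without hSRY-ON replicate 1. The planned shifts of Tnnt2 against Tnnt1 and Tnnt3 and of Tnnc1 against Tnnc2 could not be run, nor could other probes of a gene be used, since each member had 1 probe. Dim probes near background, here Tnni2, are limited by the background correction. Without normalization between arrays, the fit gave each of the 5 tested troponin probes the same SE of 0.30, so those calls did not weigh the spread of each probe.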
